A study of Mus musculus with 2 samples.

Results

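Immediate early genes are transcribed within minutes of a stimulus without new protein synthesis, and their mRNAs are short-lived. 10 of them were followed here across 5 cell classes of sorted mouse pancreas: the AP-1 subunit genes Fos, Fosb, Jun, Junb and Jund, the transcription factor genes Egr1 and Ier2, and the feedback genes Btg2, Zfp36 and Dusp1. They were taken by name and are 10 of the 14789 gene symbols in the table, and all 10 were measured. AP-1 is a dimer in which a Fos protein pairs with a Jun protein, or Jun proteins pair with each other, and the pairing partner changes which genes are activated. Freeing cells from solid tissue by enzyme digestion is itself known to induce these genes, and no undigested cells were compared here.

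The cells came from adult Tff2CreERT2; R26-tdTomato mice given tamoxifen, in which Cre made under control of Tff2 switches on a red reporter and marks the cell and its descendants. Whole pancreas was digested with collagenase-V, and CD45-TER119-EpCAM+RFP+ cells that excluded DAPI were sorted into 10x Genomics libraries. The labels give 2 biological replicates of 1 group, with no untreated or undigested control. No label ties a cell to a replicate: 667 barcodes end in 1 and 61 in 2, so the 728 cells were treated as 1 pooled sample, no p-value is given, and every interval is an exact 95% interval that covers counting error only. Where a count is 0, the limit printed in place of an interval is 3 counts, which is lower than the upper end of the exact interval.

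Classes were defined by UMIs, which are transcript molecules tagged once each. Endothelial cells had 5 or more UMIs of Kdr, Cdh5, Pecam1 and Egfl7, B cells 2 or more of Cd79a, Cd79b and Ms4a1, T cells 2 or more of Cd3e, Cd3d and Cd3g, and ductal cells 2 or more of Krt19 and Epcam. Acinar cells, the enzyme-secreting cells of the pancreas, had 10% or more of their UMIs from Ctrb1, Try4, Cela1 and Prss2. Counting cells that met exactly 1 rule gave 159 endothelial, 101 B, 68 T, 32 ductal and 262 acinar cells, while 96 cells met no rule and 10 met more than 1. The classes held 374144, 199291, 179564, 125025 and 1103355 UMIs in that order, with class medians of 1622 to 3294.5 UMIs per cell. At the cut itself stood 4 endothelial, 4 B, 8 T and 5 ductal cells, with 6, 14, 7 and 26 cells 1 UMI short of it; 5 acinar cells lay at 10% to 15% and 6 other cells at 5% to 10%.

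Markers outside the rules matched the class names. Of 7 endothelial markers, 9002 CPM (UMIs of a gene per 1000000 UMIs of the class) were found in endothelial cells and at most 240.0 CPM in another class, and of 7 T markers 4951 CPM in T cells and at most 216 CPM elsewhere. The 7 B markers reached 34176 CPM in B cells, and the 10 ductal markers 23731 CPM in ductal cells. Of other cell types, 5 erythroid markers reached 19094 CPM in endothelial cells, with up to 4304 UMIs in 1 cell, and 4 NK markers 390 CPM in T cells, while 4 neutrophil markers were at 0 in all classes but acinar (2 UMIs). B and T cells went against the sort gate: Ptprc, which encodes CD45, had a UMI in 27.7% of B and 48.5% of T cells. It had one in 1.26% of endothelial and 0.763% of acinar cells. Epcam had a UMI in 1 of 159 endothelial, 1 of 101 B and 1 of 68 T cells. Acinar cells also had it in only 6 of 262 (2.29%), so Epcam UMIs did not set these classes apart from acinar cells. Tff2 had UMIs in 98.5% of acinar cells and in 12.9% to 22.6% of cells of the other classes. The row named RFP held 2 UMIs in all 728 cells.

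Acinar cells differ from the rest in a way that bears on every level. A list of acinar enzyme genes took 76.1% of acinar UMIs and 1.62% to 2.33% of UMIs in the other 4 classes, where enzyme transcripts were present in nearly all cells. Levels are therefore given as CPM of all UMIs and, where the reading changes, as CPM of the UMIs without these enzyme genes. No class can be assumed to lack immediate early transcripts, so there is no blank share against which free RNA could be set.

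The promoters shown are those of Jun, Junb and Fos, each of which took the most member UMIs in a class described below, and of Dusp1, which came next after Jun in endothelial cells. Each is the 250 bases before the transcription start in RefSeq on build GRCm38.p6, read 5′ to 3′ on the strand of the gene. Windows of 8 of the 10 members were used. Windows on the chromosome of Egr1 were left out of the member search, and no window of Ier2 was used. Motifs of these genes are therefore in none of the member counts. Capitals mark the TATA box TATAAA and the cAMP response element, as its core TGACG or in full as TGACGTCA. They also mark TGACNTCA, which is the full element or the related site known from Jun and was chosen after the sequences had been read.
Fos (chr12:85473640-85473889, plus strand): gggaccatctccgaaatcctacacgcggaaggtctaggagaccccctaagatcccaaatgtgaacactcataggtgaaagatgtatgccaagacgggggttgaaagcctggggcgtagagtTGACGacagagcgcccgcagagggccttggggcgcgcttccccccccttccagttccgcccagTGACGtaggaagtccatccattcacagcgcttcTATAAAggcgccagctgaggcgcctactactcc
Jun (chr4:95052223-95052472, minus strand): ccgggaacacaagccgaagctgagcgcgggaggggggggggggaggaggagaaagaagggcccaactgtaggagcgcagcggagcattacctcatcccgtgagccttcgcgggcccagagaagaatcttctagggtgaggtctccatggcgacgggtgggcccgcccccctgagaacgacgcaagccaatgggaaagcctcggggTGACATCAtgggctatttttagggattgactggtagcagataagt
Junb (chr8:84978749-84978998, minus strand): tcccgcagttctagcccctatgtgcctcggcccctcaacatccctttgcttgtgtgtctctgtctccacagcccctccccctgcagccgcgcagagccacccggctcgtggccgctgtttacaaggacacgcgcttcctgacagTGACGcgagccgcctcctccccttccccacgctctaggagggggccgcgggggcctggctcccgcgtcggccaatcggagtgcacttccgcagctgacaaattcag
Dusp1 (chr17:26508473-26508722, minus strand): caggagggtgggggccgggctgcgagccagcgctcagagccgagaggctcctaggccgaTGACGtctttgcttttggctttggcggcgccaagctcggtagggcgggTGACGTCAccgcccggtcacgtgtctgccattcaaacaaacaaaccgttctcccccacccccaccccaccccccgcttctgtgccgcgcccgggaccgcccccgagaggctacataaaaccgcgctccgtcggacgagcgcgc
Fos had TATAAA at bases -33 to -28 before its start and cores at -129 and -66. Jun had the 8-base TGACNTCA site at -45 to -38 and Junb a core at -106. Dusp1 carried the full TGACGTCA at -143 to -136 and a core farther upstream at -191. TGACGTCA was present in 2 of the 8 member windows, Dusp1 and Btg2, and in 1.55% of all 32851 windows of this length, searched on both strands. TGACG, which lies within TGACGTCA, was in 5 of 8 and in 17.8% of all windows. TGACNTCA, which includes TGACGTCA, was in 3 of 8 and in 7.49%. Among the 8 windows, only that of Zfp36 had the CArG box, the binding sequence of serum response factor, found in 1.47% of windows. Bases farther than 250 before the start were not searched, in Fos or any other member, so a box there would be missed. Egr1 was not searched for the CArG box at all. TATAAA was in 1 of 8 and in 12.4% of windows, and the AP-1 motif TGANTCA in 0 of 8 and in 6.75%. These are matches of letters and not measured binding. Jund took the most member UMIs in acinar cells and is counted in the 8, but its window is not shown. That window, chr8:70697489-70697738, held none of these motifs and ends before the annotated start of Jund at 70698949.

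The 10 genes together were highest in ductal cells, at 5287 CPM (95% interval 4892 to 5706). Endothelial cells followed at 3432 CPM (3247 to 3625), T cells at 3213 CPM (2956 to 3487), B cells at 2444 CPM (2231 to 2671) and acinar cells at 592 CPM (547 to 639). Endothelial and T cells were neighbours whose ratio of 1.07 (0.967 to 1.18) included 1, and the other neighbouring steps did not include 1. Without the enzyme genes in the total, acinar cells stood at 2473 CPM beside 2493 CPM in B cells, a ratio of 1.01 (0.895 to 1.14), while ductal cells remained highest at 5386 CPM. The place of ductal cells depended on the class rule: the summed log2 ratio of endothelial over ductal cells was -0.62 as counted here, and -0.11 (-0.24 to 0.027) when cells meeting more than 1 rule were kept, which brought the ductal cells to 39. That interval includes equal levels, so by CPM of all UMIs endothelial and ductal cells could then not be ordered. Ductal cells stayed above T cells (T over ductal -0.21, -0.367 to -0.047) and B cells (B over ductal -0.57, -0.736 to -0.399). The ductal cells added all met the acinar rule as well, 6 with ductal and acinar and 1 with endothelial, ductal and acinar. Enzyme genes took 59.6% of UMIs in the 10 cells that met more than 1 rule. With these cells kept, the ratio was not computed without enzyme genes in the total, so their part in the shift was not tested. Mitochondrial transcripts took 7.36% of UMIs in ductal, 3.78% in endothelial, 3.24% in T, 4.44% in B and 1.13% in acinar cells. Among cells with at most 10% mitochondrial UMIs, which kept 22 of the 32 ductal and 256 of the 262 acinar cells, the log2 ratio was 3.27 for ductal over acinar cells (3.16 in all cells) and -0.68 for endothelial over ductal cells. The place of acinar cells at the bottom depended on counting the enzyme transcripts.

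Which genes made up the total did not depend on the denominator. UMI counts were not divided by transcript length, so the shares are compared for the same gene between classes. Jun took 22.6% (20.3 to 25) of the member UMIs in endothelial cells, 4.11% in B, 2.43% in T, 12.9% in ductal and 14.1% in acinar cells. Junb took 39.2% (34.9 to 43.7) in B and 45.8% (41.6 to 49.9) in T cells, against 15.1% in endothelial, 18.8% in ductal and 4.13% in acinar cells. Jund took 29.9% (26.4 to 33.5) in acinar cells and 7.80% to 12.7% in the other 4 classes. Dusp1 took 15.8% (13.9 to 17.9) in endothelial cells and 1.38% to 5.89% elsewhere. Ductal cells had no single leader: Fos took 19.4% (16.4 to 22.6) and Junb 18.8% (15.9 to 21.9).

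**Figure D1:**
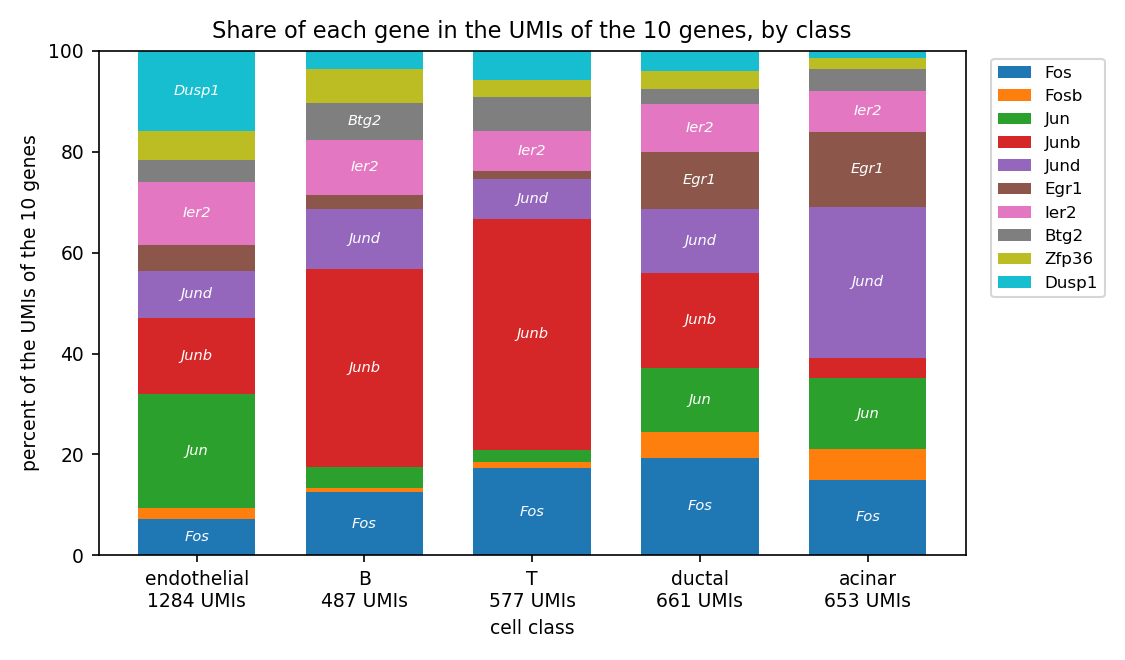
Percent of the summed UMIs of the 10 genes (vertical axis) taken by each gene, one bar per cell class, with the number of member UMIs under each bar. Junb fills 39.2% of the B bar and 45.8% of the T bar, Jun 22.6% of the endothelial bar and Jund 29.9% of the acinar bar.

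Fos encodes the partner that makes AP-1 dimers with Jun proteins stable. Its 128 UMIs in ductal cells gave 1024 CPM, its 100 in T cells 557 CPM, its 61 in B cells 306 CPM, its 93 in endothelial cells 249 CPM and its 98 in acinar cells 88.8 CPM. Ductal cells were 1.84-fold (1.40 to 2.41) above T cells and T cells 1.82-fold (1.31 to 2.54) above B cells, while B and endothelial cells differed by a ratio of 1.23 (0.877 to 1.72). The 2 ductal cells with the most member UMIs held 54 of the 128 ductal Fos UMIs (42.2%), a spread between cells that these intervals do not cover. Fosb, a close relative of Fos, had 33 UMIs and 264 CPM in ductal cells, 74.8 CPM in endothelial, 39.0 CPM in T, 35.3 CPM in acinar and 20.1 CPM in B cells. Among the 4 lower classes of Fosb, no neighbouring step could be ordered, since all 3 intervals included 1. Classes that are not neighbours could differ. Within barcode ending 1, Fosb in endothelial cells was 3.57-fold (1.25 to 14.0) above B cells, from 28 and 4 UMIs. Its ratio to T cells was 1.80 (0.770 to 4.89), and endothelial over acinar cells is given below. Fosb was 28.5% (21.1 to 36.8) of Fos and Fosb UMIs in acinar cells, 23.1% in endothelial, 20.5% in ductal, 6.54% in T and 6.15% (1.70 to 15.0) in B cells.

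Jun and Junb encode proteins that compete for the same partners, and Junb is a weaker activator on many AP-1 sites. Jun had 290 UMIs and 775 CPM (688 to 870) in endothelial cells and 85 UMIs and 679.9 CPM in ductal cells, a ratio of 1.14 (0.892 to 1.47). It was far lower in B cells at 100.4 CPM, acinar cells at 83.4 CPM and T cells at 78.0 CPM. Endothelial cells were 7.72-fold (4.91 to 12.8) above B cells and 9.94-fold (5.83 to 18.4) above T cells for Jun. Junb was at 1470.2 CPM (1298 to 1659) in T, 992 CPM in ductal, 958 CPM in B, 519 CPM in endothelial and 24.5 CPM (16.1 to 35.6) in acinar cells. T cells were 2.84-fold (2.35 to 3.43) above endothelial cells for Junb, and ductal and B cells did not differ beyond counting error, at 1.03 (0.819 to 1.30).

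The balance within the pair separated the lymphocytes from the rest. Jun was 5.04% (2.78 to 8.31) of Jun and Junb UMIs in T cells and 9.48% (5.89 to 14.3) in B cells. It was 40.7% (33.9 to 47.7) in ductal cells, 59.9% (55.4 to 64.3) in endothelial cells and 77.3% (68.7 to 84.5) in acinar cells. Only the B and T intervals overlapped. Junb overlaps Prdx2 on the opposite strand and Jun overlaps the antisense gene Junos in the annotation. No source used here states whether the authors counted by strand, and without strand such reads cannot be told apart.

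Jund is known as the Jun gene with the steadiest expression and the least induction by stimuli. Its levels were the most even of the Jun genes over the classes: 672 CPM in ductal, 315 CPM in endothelial, 291 CPM in B, 251 CPM in T and 177 CPM in acinar cells. Endothelial, B and T cells could not be ordered over all cells. Of the 45 Jund UMIs in T cells, 14 came from the 5 cells whose barcode ends in 2, and within ending 1 Jund was at 309 CPM in endothelial and 185 CPM in T cells, a ratio of 1.67 (1.12 to 2.57). Jund made up 62.1% (56.5 to 67.5) of Jun family UMIs in acinar cells, 28.7% in ductal, 21.6% in B, 19.6% in endothelial and 13.9% (10.3 to 18.2) in T cells. Without the enzyme genes in the total, Jund was at 738 CPM in acinar cells beside 684 CPM in ductal cells, a ratio of 1.08 (0.831 to 1.41).

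Egr1, a zinc finger transcription factor downstream of MAPK signalling, was high in ductal cells, at 75 UMIs and 599.9 CPM (472 to 752). Endothelial cells had 179 CPM, acinar cells 87.9 CPM, B cells 70.2 CPM and T cells 55.7 CPM, from only 14 UMIs in B and 10 in T cells. Ductal cells were 3.35-fold (2.38 to 4.73) above endothelial and 10.8-fold (5.54 to 23.4) above T cells. Ier2, a nuclear immediate early protein, was at 496 CPM in ductal and 430.3 CPM in endothelial cells, which differed by 1.15-fold (0.845 to 1.55). It was at 266 CPM in B, 251 CPM in T and 48.0 CPM in acinar cells.

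**Figure D2:**
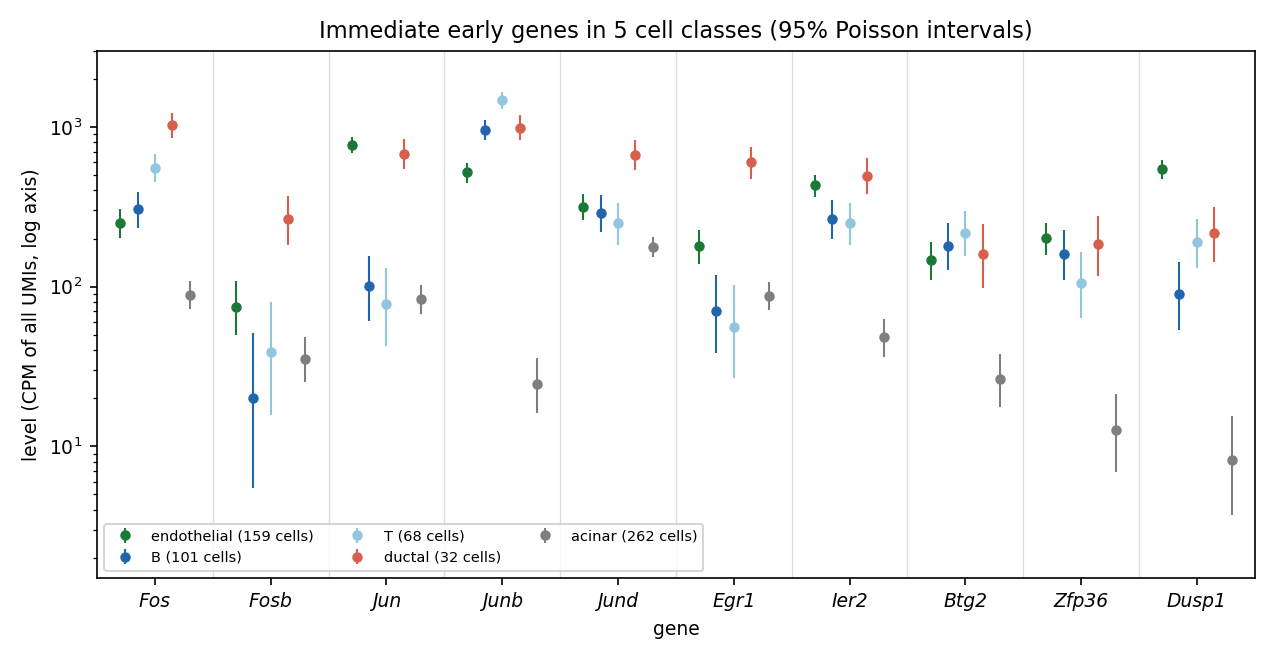
Level of each of the 10 genes in CPM of all UMIs (vertical, log axis) in the 5 cell classes, with exact 95% Poisson intervals as bars. Jun is at 775 and 679.9 CPM in endothelial and ductal cells and at 100.4 CPM or less in the other 3 classes, and Junb is highest in T cells at 1470.2 CPM.

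The feedback genes limit the response: Dusp1 encodes a phosphatase that switches off MAP kinases, Zfp36 a protein that destabilises AU-rich mRNAs, and Btg2 an antiproliferative factor that recruits deadenylases. Dusp1 had 203 UMIs and 543 CPM (470.5 to 623) in endothelial cells, 216 CPM in ductal, 189 CPM in T, 90.3 CPM in B and 8.16 CPM (3.73 to 15.5) in acinar cells. Endothelial cells were 2.51-fold (1.68 to 3.91) above ductal cells, 2.87-fold (1.99 to 4.25) above T cells and 6.01-fold (3.71 to 10.3) above B cells. Of the 262 acinar cells, 7 had a Dusp1 UMI (2.67%), against 106 of 159 endothelial cells (66.7%). After each cell was thinned to 1000 UMIs, enzyme transcripts included, these shares were 0.763% and 42.8%. Dusp1 overlaps Ergic1 and Gm8225 on the opposite strand in the annotation.

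Zfp36 was at 200.5 CPM in endothelial, 184 CPM in ductal, 161 CPM in B, 106 CPM in T and 12.7 CPM in acinar cells, and none of the 3 neighbouring steps above acinar cells excluded a ratio of 1. Endothelial cells were 1.89-fold (1.13 to 3.32) above T cells for Zfp36. Btg2 was at 217 CPM in T, 181 CPM in B, 160.0 CPM in ductal, 147 CPM in endothelial and 26.3 CPM in acinar cells, again with all 3 upper steps including 1. Its ratio of endothelial over T cells was 0.677 (0.441 to 1.05) over all cells and 0.641 (0.415 to 0.997) within barcode ending 1. The 3 feedback genes together took 25.9% (23.6 to 28.4) of member UMIs in endothelial cells, 17.7% in B, 15.9% in T, 10.6% in ductal and 7.96% (6.00 to 10.3) in acinar cells. Dusp1 was 77.3% of the joint UMIs of Dusp1 and Egr1 in T, 75.2% (69.6 to 80.2) in endothelial, 56.3% in B, 26.5% (18.2 to 36.1) in ductal and 8.49% (3.96 to 15.5) in acinar cells.

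Each class was then set against acinar cells, calling a gene at a 2-fold ratio where it had 50 or more UMIs over both classes. In endothelial cells, 9 of 10 members were higher, where 80.3% of 1846 genes were higher. In B cells 4 of the 7 members over the floor were higher (60.6% of all genes), in T cells 4 of 7 (60% of all genes) and in ductal cells 7 of 7 (72.1% of all genes). Members under the floor were Fosb, Zfp36 and Dusp1 in the B and T comparisons and Btg2, Zfp36 and Dusp1 in the ductal one. These shares lie near those of all genes, and a gene that reached the floor through its higher class was more likely to be called. None was 2-fold lower, where 7.37%, 19.3%, 20.5% and 11.1% of all genes were. The median log2 ratio of the members over the floor was 2.81 in endothelial cells against 2.69 for all genes, 1.79 against 1.63 in B, 2.39 against 1.56 in T and 3.03 against 2.10 in ductal cells.

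The members spread widely around these medians. In endothelial over acinar cells, Dusp1 was 66.5-fold (34.4 to 148) higher, Junb 21.2-fold (14.1 to 33.0), Zfp36 15.8-fold (8.86 to 30.3), Jun 9.30-fold (7.33 to 11.9) and Ier2 8.96-fold (6.53 to 12.5). At the low end stood Fos at 2.80-fold, Fosb at 2.12-fold, Egr1 at 2.04-fold (1.47 to 2.81) and Jund at 1.78-fold (1.41 to 2.25). Junb was 39.2-fold (26.1 to 61.0) higher in B, 60.1-fold (40.4 to 92.9) in T and 40.5-fold (26.6 to 63.9) in ductal than in acinar cells. Jun in B and T cells was level with acinar cells within error, at ratios of 1.20 (0.703 to 1.97) and 0.935 (0.492 to 1.65).

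With the enzyme genes out of the total, 5 members were still 2-fold higher in endothelial than in acinar cells: Jun, Junb, Ier2, Zfp36 and Dusp1 (43.8% of all genes). Jund was lower (20.2% of all genes). In B cells Junb was higher (24% of all genes) and Jun, Jund and Egr1 lower (39.9%). In T cells Junb and Btg2 were higher (23.3%) and Jun, Jund and Egr1 lower (40.9%). In ductal cells Fos, Junb and Ier2 were higher (25.2%) and none lower (28.5%). Junb was called higher in all 4 classes under both totals.

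**Figure D3:**
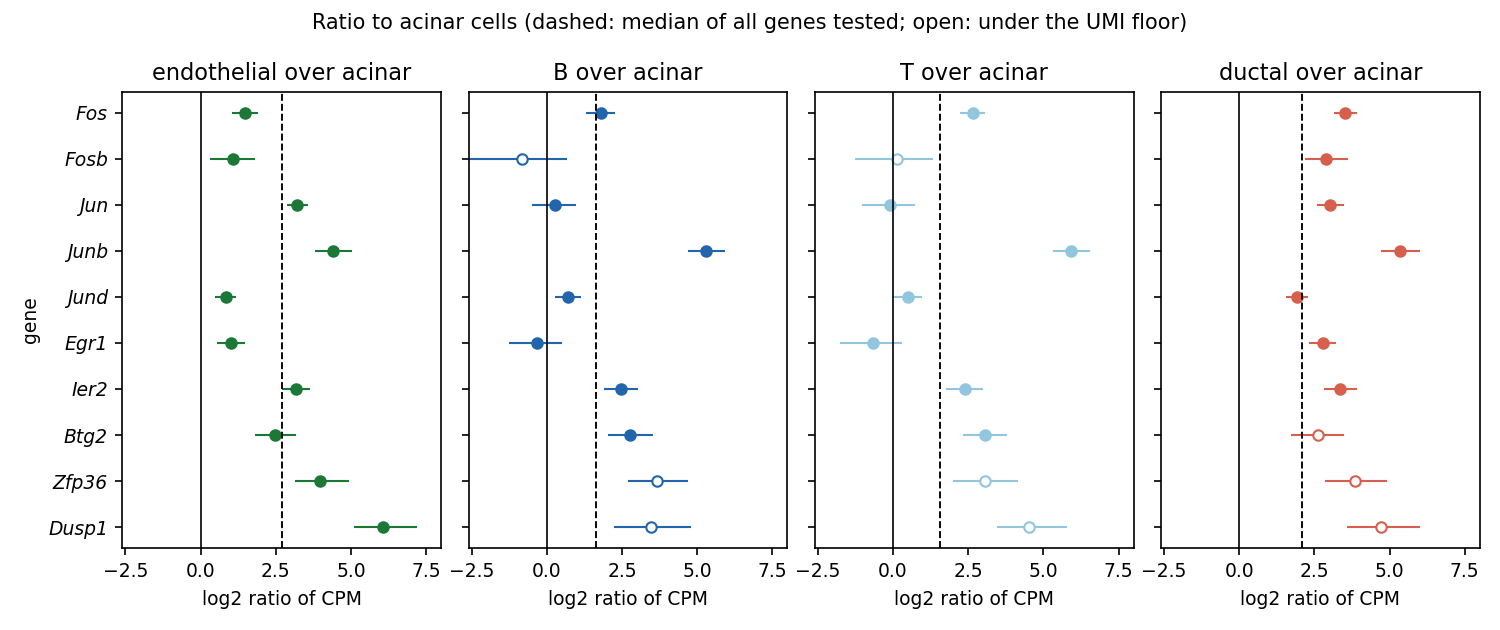
Log2 ratio of CPM to acinar cells (horizontal axis) for the 10 genes in endothelial, B, T and ductal cells, with exact 95% intervals; open points had under 50 UMIs over both classes, the solid line marks equal levels and the dashed line the median of all genes tested. Jund lies left of the dashed line in all 4 panels and Junb right of it.

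Between the other classes, endothelial over B cells had Jun, Egr1 and Dusp1 higher among 9 members over the floor (42.8% of all genes) and none lower (12.8%). Endothelial over T cells had the same 3 genes higher (44.3%) and Fos and Junb lower (13.4%). Endothelial over ductal cells had Dusp1 higher (27.9%) and Fos, Fosb, Jund and Egr1 lower (11%), over all 10 members. B over T cells had Dusp1 lower (7.13%) and none higher (9.61%) among 7. B over ductal cells had Fos, Jun, Jund and Egr1 lower (30.7%) and none higher (21.1%), and T over ductal cells Jun, Jund and Egr1 lower (32.2%) and none higher (24.9%), among 8 each.

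Per cell, with every cell thinned to 1000 UMIs, the median count of member UMIs was 3 in endothelial, 2 in B, 3 in T, 3.5 in ductal and 0 in acinar cells. Cells with no member UMI made up 6.92%, 16.8%, 11.8%, 12.5% and 65.3%. The 1000 UMIs include enzyme transcripts, which took 76.1% of acinar UMIs and so left fewer for other genes there. Thinning without enzyme genes was not done, and their part in the acinar values was not tested. Without thinning these shares were 5.03%, 8.91%, 2.94%, 0 of 32 ductal cells, which allows a share of up to 9.38%, and 42.4% in acinar cells. The 5% of cells with the most member UMIs held 18.3% of them in endothelial, 21.6% in B, 24.4% in T, 23.4% in ductal and 43.5% in acinar cells. In acinar cells these were 14 cells with 9 to 47 member UMIs each, and their median depth was 13788 UMIs against 2048 in the other 248. Their level was 1161 CPM against 430 CPM in the others. As the 14 cells were chosen for their member UMIs, a higher level is partly built in, and the part of depth was not tested.

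**Figure D4:**
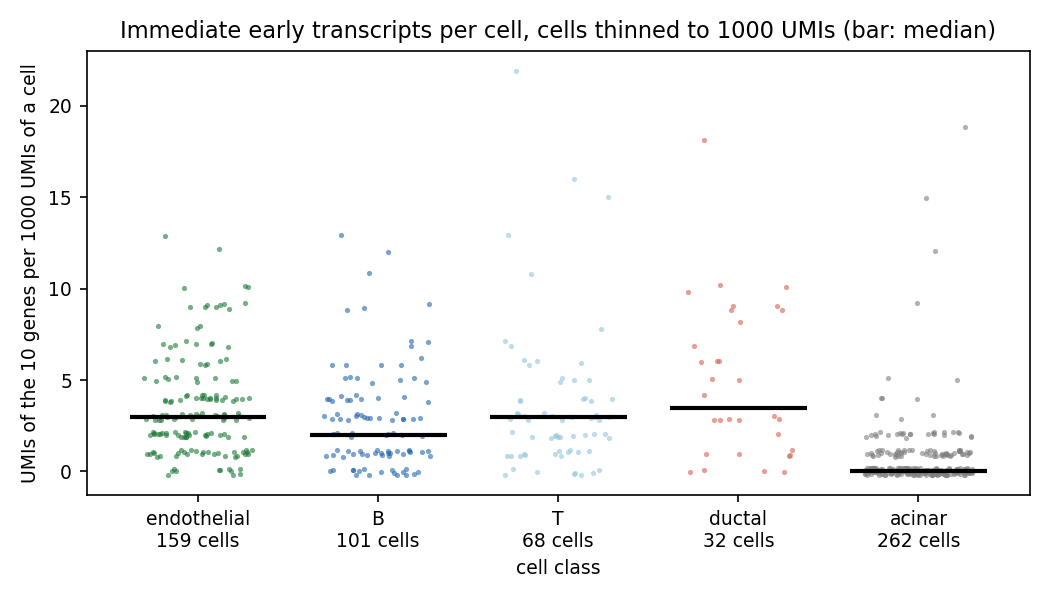
Member UMIs per cell after thinning to 1000 UMIs (vertical axis), one point per cell, by class, with points moved slightly to show ties and a bar at the median. The acinar median is 0 and the other medians lie between 2 and 3.5. The 1000 UMIs include enzyme transcripts, which took 76.1% of acinar UMIs.

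Members were seen in the same cells to different degrees. In ductal cells, Fos correlated with the sum of the other 9 at r = 0.60 over 32 thinned cells, and Junb at 0.44. In acinar cells (262 thinned cells), Egr1 and Jun had r = 0.41 and 0.40 with the other 9. In endothelial cells (159), Jun had r = 0.13, Dusp1 0.18 and Jund 0.29. These are descriptions of cells that share a library and free RNA. In acinar cells the thinned UMIs include enzyme transcripts, whose share differed between cells. The part of this share in the acinar correlations, here and below, was not tested. Among genes that are no members, the highest correlation with the summed members was Ddx5, an RNA helicase gene, in T cells (r = 0.51, 68 cells), followed there by Lyar, Srsf3, Ftl1 and Zfp36l2 at 0.37 to 0.34. In acinar cells it was the nuclear RNA Malat1 (0.47), followed by mt-Co3, Herpud1, mt-Atp6 and Rrbp1 at 0.36 to 0.31. In B cells Ltb reached 0.31, and in endothelial cells none reached 0.3. Ductal cells were not searched in this way, as the class held fewer than 50 cells. Over the 5 classes, the genes most like the summed members in log2 level were M6pr, Cox14, Mdh2, Sf3b5 and Aimp1, with r near 1, and 864 of 2957 genes had r of 0.9 or more on these 5 points.

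Acinar cells were not uniform. Those with 10% to 30% of UMIs from the 4 rule genes (105 cells) held 421 member UMIs at 907 CPM (822 to 998), and those with 30% to 50% (157 cells) held 232 at 363 CPM (318 to 413). Without enzyme genes in the total the values were 3033 and 1852 CPM. The share of cells with no member UMI was 26.7% in the first bin and 52.9% in the second, at median depths of 2149 and 2067 UMIs. Zfp36 had 13 UMIs in the first bin and 1 in the second, while Jund had 105 and 90. Of the cells with barcode ending 2, 8 were in the first bin and 37 in the second.

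The barcode ending moved with the level in acinar cells. The 217 acinar cells with ending 1 held 643 member UMIs, 656 CPM (606 to 708), and the 45 with ending 2 held 10, 81.5 CPM (39.1 to 149.8), a ratio of 8.05 (4.35 to 16.9). 4 genes were called higher under ending 1 among the 5 members over the floor, where 26.5% of 616 genes were: Fos with 97 UMIs against 1, Jun with 92 against 0, Egr1 with 97 against 0 and Jund with 192 against 3. None was lower (5.84%). Without enzyme genes in the total the same 4 were higher (23.4% of all genes) and none lower (8.77%). Jun was at least 3.84-fold and Egr1 at least 4.05-fold higher, against a floor of 3 counts over the ending-2 cells, and the lower ends of the exact intervals were 3.06 and 3.23. Btg2, with 26 against 3 UMIs, differed by a ratio of 1.08 (0.332 to 5.60). Ending-2 acinar cells had a median of 1644 UMIs and 209 genes against 2248 and 381, mitochondrial transcripts at 0.523% against 1.21%, and enzyme genes at 79.4% against 75.6%; the part of these in the result was not tested.

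**Figure D5:**
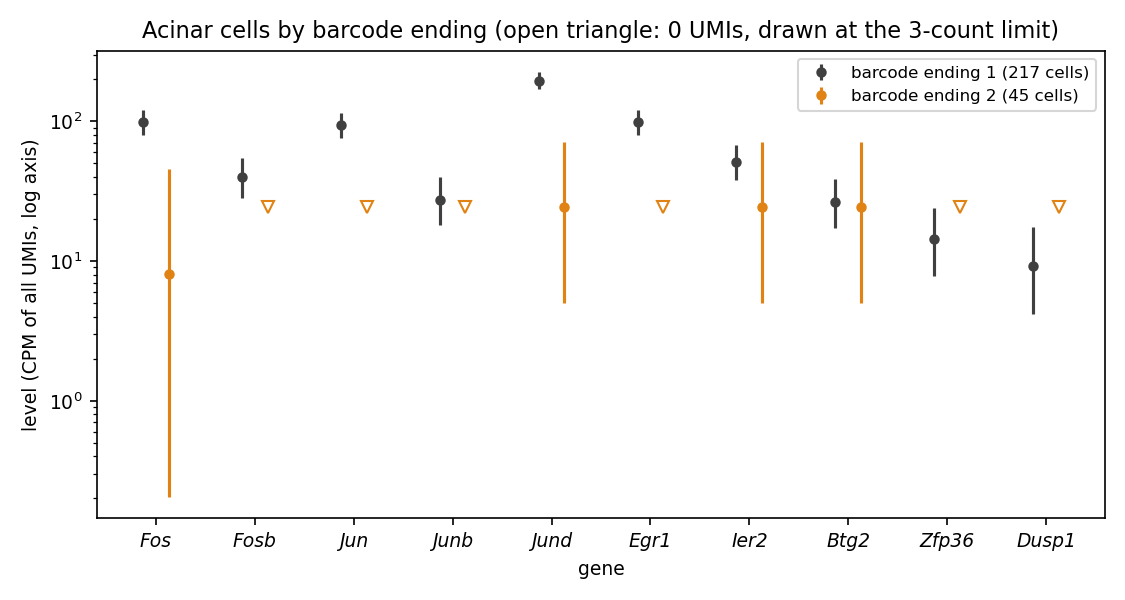
Level of each of the 10 genes in CPM of all UMIs (vertical, log axis) in acinar cells by barcode ending, with exact 95% Poisson intervals; an open triangle marks 0 UMIs, drawn at the limit of 3 counts. Fos, Jun, Jund and Egr1 lie near 94 to 196 CPM under ending 1 and at or below about 24.4 CPM under ending 2.

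The other classes had 11 cells with ending 2, too few to describe class by class. Over these 11 cells, Jund took 48.5% (36.0 to 61.1) of 66 member UMIs, against 9.28% (8.25 to 10.4) in the 349 such cells with ending 1. Junb took 9.09% (3.41 to 18.7) against 26.1%. Their summed level was 1949 against 3486 CPM. Since the classes differ in how many ending-2 cells they hold, 45 of 262 in acinar cells and at most 5 in another class, the acinar share of Jund was also computed within ending 1, where it was again 29.9%. Ending-1 values of the leading genes stayed at 22.6% for Jun in endothelial, 39.4% for Junb in B and 47.1% for Junb in T cells. 7 barcode sequences occurred under both endings. Their ending-1 cells held 0 member UMIs and their ending-2 cells 5.

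Other early response genes, taken from 5 lists, gave the setting. None of the 6 measured further AP-1 genes reached the floor; Fosl2 had 27 UMIs (72.2 CPM) in endothelial and 3 in acinar cells, Maff 12 and 1, and Mafk 12 and 3. Of 13 measured other early transcription factors, 4 passed the floor in endothelial over acinar cells and all 4 were higher (80.3% of all genes), with a median log2 ratio of 5.52 against 2.69 for all genes. All 4 were again higher without enzyme genes in the total (43.8% of all genes). All 4 reached the floor through endothelial cells, so a higher ratio is partly built in. Klf2 had 93 UMIs in endothelial and 2 in acinar cells, Klf4 55 and 2, Klf6 63 and 22, and Hes1 103 and 9. Genes under the floor are not in the median. Klf2, a factor induced by blood flow, was at 249 CPM in endothelial, 361 CPM in B, 334 CPM in T and 1.81 CPM in acinar cells, with 0 UMIs in ductal cells, which allows up to 24.0 CPM. Klf4 was at 147 CPM in endothelial and at most 20.1 CPM in the other classes, and Klf6 at 168 CPM in endothelial and 176 CPM in ductal cells. Hes1, a Notch target, was at 656 CPM in ductal and 275 CPM in endothelial cells, with 25.1 CPM in B and 8.16 CPM in acinar cells and 0 UMIs in T cells, which allows up to 16.7 CPM.

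Of 26 measured genes of feedback and mRNA decay, 9 passed the floor and all 9 were higher in endothelial than in acinar cells (80.3% of all genes), with a median log2 ratio of 4.78. Of the 9, 8 were higher without enzyme genes in the total (43.8%). Genes such as Dusp6, with 71 UMIs in endothelial and 1 in acinar cells, and Ier5, with 78 and 1, reached the floor through endothelial cells. Dusp6, an ERK phosphatase, was at 190 CPM in endothelial cells and at most 24.0 CPM in the other classes. Ier5 was at 208 CPM in endothelial, 206 CPM in B, 106 CPM in T and 24.0 CPM in ductal cells. Btg1, the paralog of Btg2, was at 2158 CPM in B and 1648 CPM in T cells against 441 CPM in endothelial, 439.9 CPM in ductal and 45.3 CPM in acinar cells. Nfkbia and Zfp36l1 were each at 409 CPM in endothelial cells, and at 14.5 and 23.6 CPM in acinar cells. Mcl1, a survival gene, was at 93.5 CPM in endothelial and 14.5 CPM in acinar cells.

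Of 11 heat shock genes, 6 passed the floor and 5 were higher in endothelial than in acinar cells, (80.3% of all genes), with a median log2 ratio of 2.81 against 2.69 for all genes. Without enzyme genes in the total 3 of the 6 were higher (43.8%) and 1 lower (20.2%). Hspb1 was at 575 CPM in endothelial, 18.1 CPM in acinar, 32.0 CPM in ductal and 5.57 CPM in T cells. Hsp90aa1 was at 416 CPM in ductal, 246 CPM in B, 145 CPM in T, 126 CPM in endothelial and 40.8 CPM in acinar cells. Hsp90ab1, Hspa8 and Dnaja1 were at 802, 764 and 198 CPM in endothelial cells and at 146, 85.2 and 9.97 CPM in acinar cells, and Hspe1 at 115 and 75.2 CPM. Of 10 genes of the serum response and MAPK relay, 3 passed the floor and 2 were higher (80.3% of all genes): Elk3, which encodes a serum response factor partner, at 342 against 2.72 CPM, and Mapk3, which encodes ERK1, at 452 against 9.97 CPM. Map2k2, at 144 against 109.7 CPM, was not. Elk3, with 128 UMIs in endothelial and 3 in acinar cells, and Mapk3, with 169 and 11, reached the floor through endothelial cells. Without enzyme genes in the total, Elk3 and Mapk3 were higher (43.8%) and Map2k2 was lower (20.2%).

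In the annotation (GENCODE M21, GRCm38) the members lie on 7 chromosomes. Fos spans chr12:85473890-85477273, Jun chr4:95049034-95052222, Junb chr8:84974484-84978718, Jund chr8:70698949-70700616 and Ier2 chr8:84661331-84662852. Fosb spans chr7:19302696-19310051, Zfp36 chr7:28376784-28380253, Egr1 chr18:34859823-34864984, Btg2 chr1:134075170-134079120 and Dusp1 chr17:26505590-26562128. The annotated Dusp1 span is long, and the RefSeq start used for its promoter lies inside it. The antisense gene Gm11175 overlaps Jund.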

How the data were processed

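The authors deposited 1 table of raw UMI counts per gene and cell, as the whole-number values show. The submitters' processing notes name Cell Ranger and mm10. Versions, cell filters, doublet treatment and strand handling are stated in no source used here. The 14793 rows were reduced to 14789 symbols by summing repeated ones. Doublets were not called here; cells meeting 2 or more class rules were left out.

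UMIs were summed per class and scaled to CPM (Python 3.11.15, pandas 2.3.3, numpy 2.4.6, scipy 1.17.1). Intervals were exact: Poisson for levels, Clopper-Pearson for shares, conditional binomial for ratios. Log2 ratios had 0.5 counts added to each sum; a floor of 50 UMIs over both classes and a 2-fold ratio made a call. Thinning drew 1000 UMIs per cell once. The planned test across samples was not run, because cells are not tied to samples. The calls were tested on simulated data, where the required share of recovered calls was lowered after ductal over acinar cells had only equalled it.

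All 10 members are named. Of other lists, the 3 genes with the most UMIs and up to 2 with the highest and 2 with the lowest endothelial ratio are named. Members and lists were chosen with earlier results of these data known. Alternatives covered the total, class rules, barcode endings, cell weighting, thinning, a mitochondrial limit, removal of cells with the most member UMIs, removal of shared barcodes, floor and prior. 1 alternative, the total without enzyme genes within ending 1, was chosen after seeing the data.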

Additional observations from a re-analysis of the deposited data

Results flagged for a closer look

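The 96 cells that met no class rule entered none of the comparisons, yet held the 10 genes at 3662 CPM (95% interval 3445 to 3889), where a count of 0 would have allowed 10.3 CPM. Jun took 18.1% of these UMIs, Fos 17.2% and Junb 15.1%. Macrophage markers were at 4508 CPM in these cells, mesenchymal markers at 4298 CPM and erythroid markers at 274635 CPM, so they are a mixture; the part of each cell type in the value was not tested.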

How the results depend on the processing

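No paired analysis was possible because cells are not tied to the replicates and there is 1 group; leaving out a replicate could not be run for the same reason. Of 101 recomputed log2 ratios of the summed genes, 67 stayed within the main interval, 33 left it and 1 reversed. Reversed means here that the sign changed, whatever the interval of the new value. The main values were 2.54 for endothelial, 2.05 for B, 2.44 for T and 3.16 for ductal over acinar cells.

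Without enzyme genes in the total these ratios were 0.51, 0.01, 0.40 and 1.12. In the same order, 5, 1, 2 and 3 members were 2-fold higher, and 1, 3 and 3 lower in endothelial, B and T cells. Endothelial over acinar reversed for Egr1 (-1.0), Fos (-0.54) and Fosb (-0.94), as did Fos in B (-0.24) and Jund in ductal cells (-0.10). Of ratios that were not 2-fold before, Jund also changed sign in endothelial (-1.19), B (-1.31) and T cells (-1.52), Jun in B (-1.74) and Fosb in T cells (-1.82). With ending 1 alone added to that, a setting chosen after seeing the data, the summed ratios were 0.38, -0.05, 0.32 and 1.06. B over acinar cells thus changed sign, with an interval of -0.228 to 0.118 that includes equal levels. In that setting 5, 1, 2 and 3 members were higher and 3, 3 and 3 lower in endothelial, B and T cells. The same 5 single ratios were -1.16, -0.67, -1.08, -0.30 and -0.31. For this setting and for ending 2 alone, the share of all genes called was not computed, so these counts have no background. With ending 1 and all UMIs, endothelial over acinar was 2.39 and Jund in T over acinar cells -0.06. With ending 2, where T and acinar cells had enough cells, T over acinar was 4.58, 0 members were called higher, and Junb was 13% in T cells, where Jund led at 60.9%; Btg2 led in acinar cells (30%, of 10 UMIs).

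Stricter rules gave 3.24 for endothelial, 2.72 for B, 3.0 for T and 3.85 for ductal over acinar, 0.24 for endothelial over T, 2 members higher in T, and 40.2% for Jund in acinar cells. Keeping every cell that met a rule gave 2.62 for ductal over acinar, and -0.57, -0.21 and -0.11 for B, T and endothelial over ductal. Thinned cells gave 2.30 for endothelial and 2.76 for ductal over acinar, -0.76, -0.44 and -0.46 for B, T and endothelial over ductal, and 0.30 for endothelial over B; 5, 2, 2 and 3 members were higher in endothelial, B, T and ductal cells, with fewer UMIs over the floor, and Junb was 43.8% in B cells. Weighting cells equally gave 2.25, 2.27 and 2.82 for endothelial, T and ductal over acinar, 0.27 for endothelial over B, -0.84 for B over ductal, and 1 member lower in T. Without the 5% of cells with most member UMIs, values were 2.84, 2.26 and 3.40 for endothelial, B and ductal over acinar and 0.24 for endothelial over T; 1 member was lower in T, Fos was 14.6% in ductal cells and Jund 37.1% in acinar cells. The mitochondrial limit of 10% and the removal of shared barcodes left all 10 summed ratios within their main intervals. The leading gene changed elsewhere only in ductal cells, to Junb under stricter rules (21.1%) and without the top cells (20.2%). The cause of these shifts was not tested. For the settings in this paragraph the share of all genes called was not computed. Their counts of called members therefore have no background to be read against. Depth limits ductal cells most, where a count of 0 allows 24.0 CPM.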
